A study of Homo sapiens
Mus musculus and Homo sapiens with 21 samples.

Results

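Forebrain and hindbrain of athymic nu/nu mice, dissected without tumours, gave 8 of the 21 sequencing libraries of the series and are compared here. They were chosen by their titles: FB Rep 1 to 4 are forebrain and HB Rep 1 to 4 are hindbrain, so there were 4 libraries of each region. Athymic nu/nu mice lack a working thymus and with it most T cells, and were used as hosts for human tumours. Both regions carry the same strain label, and the labels name the human lung cancer line H2030-BrM3 for these tissues too. Whether the tumour-free mice had received any cells is not stated, and neither are their age, their sex or the number of mice behind a library. The age of 5 to 6 weeks is given for mice at injection of xenografts. The rest of the series holds cancer cells in culture or under the skin, and 3 libraries each of forebrain and hindbrain that carried brain metastases. Those 6 tumour-bearing libraries share no sample with the 8 and are set beside them for named genes. Nothing in the labels says that replicates came from separate mice, so p values measure only the spread between these libraries, which may in part be technical.

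The forebrain holds the cerebral cortex, hippocampus, striatum, thalamus and hypothalamus, and the hindbrain holds the pons, medulla and cerebellum. Each region keeps in the adult the transcription factors that patterned it in the embryo, such as Dlx genes in the telencephalon and Hox genes in the medulla. The cortex is rich in spiny excitatory neurons, the striatum in dopamine-sensitive projection neurons and the hypothalamus in peptide neurons. The cerebellum is built of densely packed granule cells and large Purkinje cells. The brainstem adds glycinergic, serotonergic and motor neurons and broad myelinated tracts. Where the cut between the regions ran, and on which side the midbrain lay, is not stated.

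Values are RPKM, reads per kilobase of transcript relative to the mapped reads of the library, from the authors' mouse table, rescaled here so that every library sums to 1000000. All levels below are on that scale, which is per length and so compares between genes. Reads recovered from the RPKM steps came to 17747167 to 20432888 per forebrain library and 19338017 to 23034782 per hindbrain library. Folds are 2 to the power of the difference between mean log2(value + 1), forebrain over hindbrain, which understates the change of low genes. With 0.1 in place of 1 in the logarithm, 41 of the 191 called genes named here had folds over 1.5 times larger, and none of them had a fold over 1.5 times smaller. A gene is called where limma's moderated test gave a Benjamini-Hochberg adjusted p below 0.05 over 14860 genes that reached 1 in 4 or more libraries. Of these genes, 7374 were called, 2878 higher and 4496 lower in forebrain, and 1321 of the calls were at least 2-fold (644 higher and 677 lower). The background is therefore high: 49.6% of all genes tested were called, 19.4% higher and 30.3% lower in forebrain, and each count of list members below is to be read against those shares. The median log2 difference of all genes tested was -0.08. The split between directions depends on scaling, since median-of-ratios scaling moved that median by 0.08 and gave 3783 higher and 3566 lower calls (51.5% higher, against 39.0% in the calls above). Libraries of the same region correlated at 0.985 to 0.992 over genes and libraries of different regions at 0.93 to 0.955, and genes are not independent replicates. In whole tissue, fewer cells of a type and less RNA per cell cannot be told apart.

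Hindbrain replicates 2, 3 and 4 stood apart from hindbrain replicate 1 by holding cortical transcripts. Tbr1, a transcription factor of cortical projection neurons, measured 122, 108, 95.1 and 83.8 in the 4 forebrain libraries, against 0.404, 9.88, 13.4 and 6.51 in the 4 hindbrain libraries. Hindbrain replicates 2, 3 and 4 thus held 9.66, 13.1 and 6.37% of the forebrain mean of Tbr1, 10.2, 14.1 and 6.598% of that of Emx1 and 9.09, 13.3 and 5.61% of that of Fezf2, while replicate 1 held 0.395%, 0.814% and 0%. Emx1 and Fezf2 are transcription factors of the dorsal telencephalon and of deep cortical layers. The striatal genes Drd1 and Adora2a stayed between 1.82 and 3.68% of the forebrain mean in every hindbrain library, so this pair of genes did not show the step between replicate 1 and the other 3. In the tumour-bearing hindbrain Tbr1 measured 0.325, 0.601 and 0.311. Of the called genes named here, 40 had a fold that moved by over 1.5 times against hindbrain replicate 1 alone, 35 of them to a larger fold. That fold is given below for some of the genes only, and it assumes that the lone library varies like the others. The calls of Arntl, Bcl6, Cux1, Egfr, Grin1, Idi1, Isg15, Ldhb, Lhx9, P2ry13, Pcp4, Scn2a1 and Slc2a1 were not held against replicate 1 alone. The part of these cortical transcripts in any single difference was not tested.

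**Figure D1:**
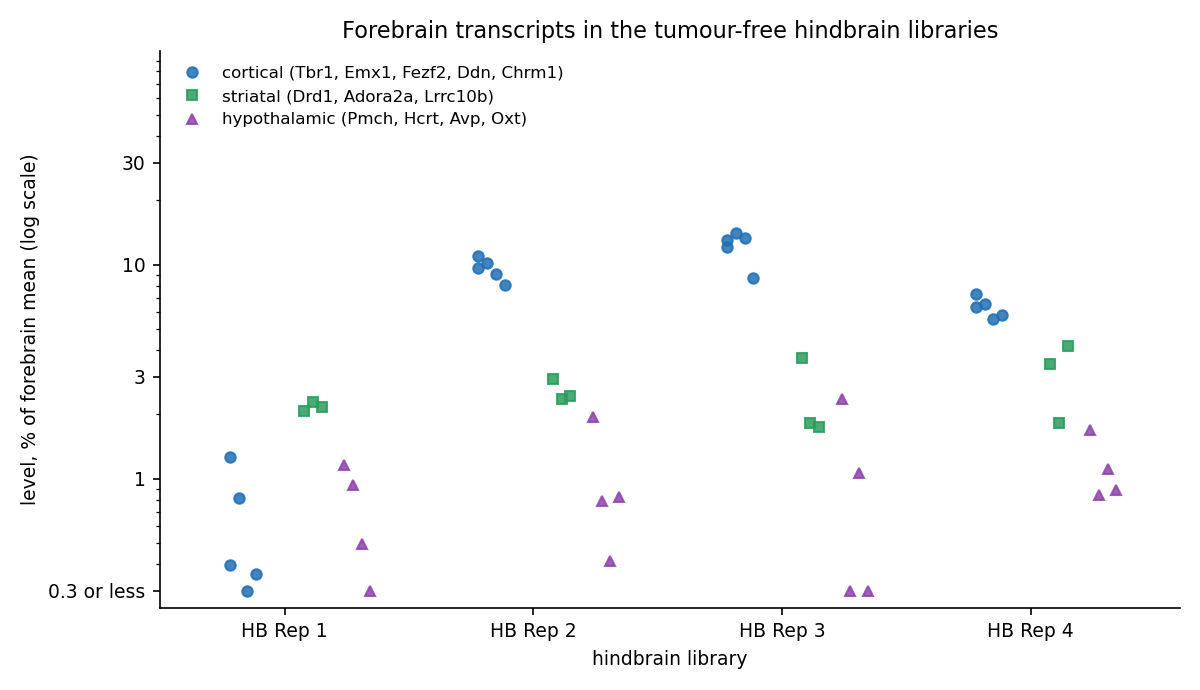
Level of forebrain transcripts in each hindbrain library as a percentage of the mean of the 4 forebrain libraries (vertical axis, log scale, values under 0.3% drawn at 0.3%). Drawn are the cortical genes Tbr1, Emx1, Fezf2, Ddn and Chrm1, the striatal genes Drd1, Adora2a and Lrrc10b, and the hypothalamic genes Pmch, Hcrt, Avp and Oxt. The cortical genes drawn lie between 5.61% and 14.1% in hindbrain replicates 2 to 4 and at 1.27% or below in replicate 1. The striatal and hypothalamic genes drawn lie at 4.18% or below in all 4. Other genes of these lists, such as Drd2, Penk and Pomc, are not drawn and stood at higher percentages.

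Genes of tissue that a dissection can carry along varied by library. The 7 haemoglobin and red cell genes summed to 467, 767, 323 and 308 in forebrain and 765, 1478, 431 and 332 in hindbrain. Both regions had the same order of replicates, with replicate 2 highest and replicate 4 lowest. None of the 7 was called by limma or with voom weights on the recovered reads, and 1 had an unadjusted p below 0.05. Without forebrain replicate 2 or 4 or hindbrain replicate 3 or 4, 1 of them was called, and with replicate numbers as blocks 5 were. The 16 choroid plexus genes ranged from 507 to 1161 in forebrain and from 707 to 1574 in hindbrain. The growth hormone transcript Gh, made in the pituitary, measured 0, 0.0883, 5.68 and 0.303 in forebrain and 0, 0.137, 8.64 and 0.366 in hindbrain, so it stood out in replicate 3 of both. No pituitary or pineal gene of the lists passed the filter.

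Of 25 telencephalic transcription factors tested, 21 were higher and 2 lower in forebrain, with a median log2 difference of 2.56. Of 33 hindbrain and cerebellar transcription factors, 1 was higher and 31 were lower. Of these 33, 16 stayed below 1 in every forebrain library and so passed the filter through hindbrain alone, and 4 of the telencephalic factors passed through forebrain alone. The direction of such genes was fixed by the filter and their counts are a description. In each of the other lists except the Hox genes, 5 or fewer members passed in this way. Dlx1, a homeobox factor of forebrain inhibitory neurons, measured 39.8, 42.8, 49.98 and 39.4 in forebrain, against 0.26, 3.57, 2.32 and 1.72 in hindbrain. The regions did not overlap, and hindbrain replicate 1 was the lowest library. Forebrain was 16.3-fold higher (adjusted p = 1.79e-05), or 12.7-fold without hindbrain replicate 1. Dlx6, a related factor of the same neurons, was 14.05-fold higher (adjusted p = 1.53e-07) and had no read in hindbrain replicate 1. Lhx2, a factor of cortical progenitors, was 6.18-fold higher, or 12.4-fold against hindbrain replicate 1. The 2 telencephalic factors on the other side were Lhx9, lower by 1.55-fold, and Cux1, lower by 1.17-fold. The call of Lhx9 was lost without forebrain replicate 1, 2 or 3 or hindbrain replicate 2 or 4 (adjusted p = 0.0592 to 0.0743), and that of Cux1 without forebrain replicate 2, 3 or 4 or hindbrain replicate 1, 2 or 4 (adjusted p = 0.0524 to 0.0965). Both calls were also lost with quantile normalization or without the filter. That of Lhx9 was lost with voom too, and that of Cux1 with median-of-ratios scaling or a replicate block.

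Hox genes set the identity of hindbrain and spinal cord segments. Of 34 Hox genes in the table, 14 passed the filter, all of them through hindbrain alone, and 9 of those 14 had no read in any forebrain library. Hoxb8 measured 8.79, 29.6, 42.1 and 8.02 in hindbrain, at least 476-fold above what 3 reads over the 4 forebrain libraries would give. Hoxa5 measured 13.3, 18.2, 18.2 and 8.91 in hindbrain, at least 520.1-fold higher by the same bound, and Hoxb3 measured 14.99, 18.2, 19.9 and 13.2, at least 399-fold. The level of Hoxb8, a gene of the most caudal hindbrain and of the spinal cord, varied among the hindbrain libraries more than that of Hoxb3, which is expressed further forward. Hoxb5 had 1 read in forebrain and measured 15.1, 25.8, 19.5 and 11.8 in hindbrain. Hox genes overlap within their clusters, and the counting is not stated to use strand, so reads of neighbours and antisense transcripts cannot be told apart. 

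Factors of the midbrain-hindbrain boundary and of cerebellar lineages were lower in forebrain too. En2, which patterns the cerebellum, measured 0.248, 0.473, 0.221 and 0.553 in forebrain, against 24.9, 13.9, 9.17 and 15.1 in hindbrain, a difference of 11.6-fold (adjusted p = 1.09e-06). Lhx1, Tfap2b, Irx2 and Pax2, factors of cerebellar and brainstem inhibitory neurons or of hindbrain patterning, were lower in forebrain by 11.1, 10.7, 9.65 and 8.35-fold. Of 13 factors of the diencephalon and midbrain, 3 were higher and 7 lower. Nkx2-1, the factor of hypothalamus and ventral telencephalon, was 2.44-fold higher, while Gata3 and Lmx1b, which specify brainstem inhibitory and monoamine neurons among others, were 5.14-fold and 4.46-fold lower.

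Among the 15 largest differences towards forebrain were those of Avp, Pmch, Ddn, Oxt, Adora2a, Dlx1, Kcnj4, Tbr1, Ptk2b, Rgs14, Lrrc10b, Icam5 and Cd4, in falling order, and 10 of the 15 belong to the lists of cortical, striatal, telencephalic, hypothalamic or postsynaptic genes. The lists were chosen with earlier results of these data known, so this overlap is only a description. Of 20 genes of cortical excitatory neurons, 15 were higher and 2 lower, with a median log2 difference of 1.75. Of 20 striatal genes, 19 were higher and none was lower, with a median of 1.82. Against hindbrain replicate 1 alone the counts were 17 and 19 higher. Tbr1 was 16.0-fold higher (adjusted p = 0.00385), or 72.8-fold against hindbrain replicate 1 and 9.69-fold without it. Ddn, which encodes the dendritic protein dendrin, measured 423, 442, 492 and 406 in forebrain, against 1.59, 35.5, 38.1 and 25.7 in hindbrain, 24.8-fold higher, or 169.9-fold against replicate 1 and 13.1-fold without it. Neurod6, a factor of maturing cortical neurons, was 7.44-fold higher. Etv1, a marker of layer 5 neurons that cerebellar granule cells also express, and Bcl6 were the 2 members of the cortical list on the other side, lower by 1.94 and 1.41-fold. Hippocampal genes gave 5 higher and 1 lower of 8, led by Spink8 and C1ql3, genes of hippocampal pyramidal or granule neurons, at 5.48-fold and 3.54-fold. Prox1, the factor of dentate granule cells that other neurons and oligodendrocytes also express, was 1.42-fold lower.

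Striatal genes were led by receptors of the projection neurons. Adora2a, the adenosine receptor of striatal neurons of the indirect pathway, measured 37.6, 28.6, 32.0 and 27.9 in forebrain, against 0.719, 0.743, 0.573 and 0.573 in hindbrain. Drd1, the dopamine receptor of the direct pathway, measured 27.3, 21.7, 23.7 and 18.8 in forebrain, against 0.477, 0.667, 0.841 and 0.788 in hindbrain. All hindbrain libraries were below 1 for both genes, and the differences were 19.6-fold (adjusted p = 2.65e-09) and 14.04-fold (adjusted p = 1.48e-08). Drd2, the dopamine receptor of the indirect pathway that dopamine neurons also use as an autoreceptor, differed less, with 25.5 ± 3.90 in forebrain and 9.10 ± 1.72 in hindbrain (SD, n = 4 each). Ppp1r1b, which encodes the dopamine-regulated phosphatase inhibitor DARPP-32, was 4.88-fold higher. Penk, the precursor of enkephalins, was 2.24-fold higher at 366 ± 36.0 in forebrain and 163 ± 14.9 in hindbrain. Scn4b, a sodium channel beta subunit enriched in striatum and in Purkinje cells, was the only member of the list without a call, at 78.6 ± 7.93 in forebrain and 75.4 ± 8.75 in hindbrain (adjusted p = 0.63).

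Hypothalamic peptide genes stood high among the largest differences towards forebrain, with Avp and Pmch at the top of that ranking. Pmch, the precursor of melanin-concentrating hormone of the lateral hypothalamus, measured 59.6, 59.7, 61.2 and 78.5 in forebrain, against 0.749, 1.26, 1.54 and 1.10 in hindbrain. Hcrt, the precursor of the wake-promoting orexins, measured 11.9, 13.8, 12.7 and 16.3 in forebrain, against 0.128, 0.107, 0 and 0.115 in hindbrain. The regions lay far apart for both genes, and forebrain replicate 4 was the highest library for both. Avp and Oxt, the vasopressin and oxytocin genes of neurons that project to the posterior pituitary, were 34.3-fold and 23.7-fold higher (adjusted p = 4.61e-07 and 1.31e-07). Avp ranged more widely in forebrain, with 49.5, 47.2, 74.4 and 25.6. Other peptide genes showed smaller differences or none. Tac2 and Cartpt were 2.61-fold and 1.80-fold higher, while Gal, the galanin gene, was 1.81-fold lower in forebrain. Pomc measured 2.37 ± 0.486 in forebrain and 1.76 ± 0.338 in hindbrain and was not called (adjusted p = 0.109). Of 15 peptide genes of this list tested, 7 were higher and 3 lower. In the tumour-bearing forebrain Pmch measured 0.716, 0.313 and 0.301 and Hcrt had no reads in any of the 3 libraries, so this signal of the lateral hypothalamus was near or at 0 there.

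**Figure D2:**
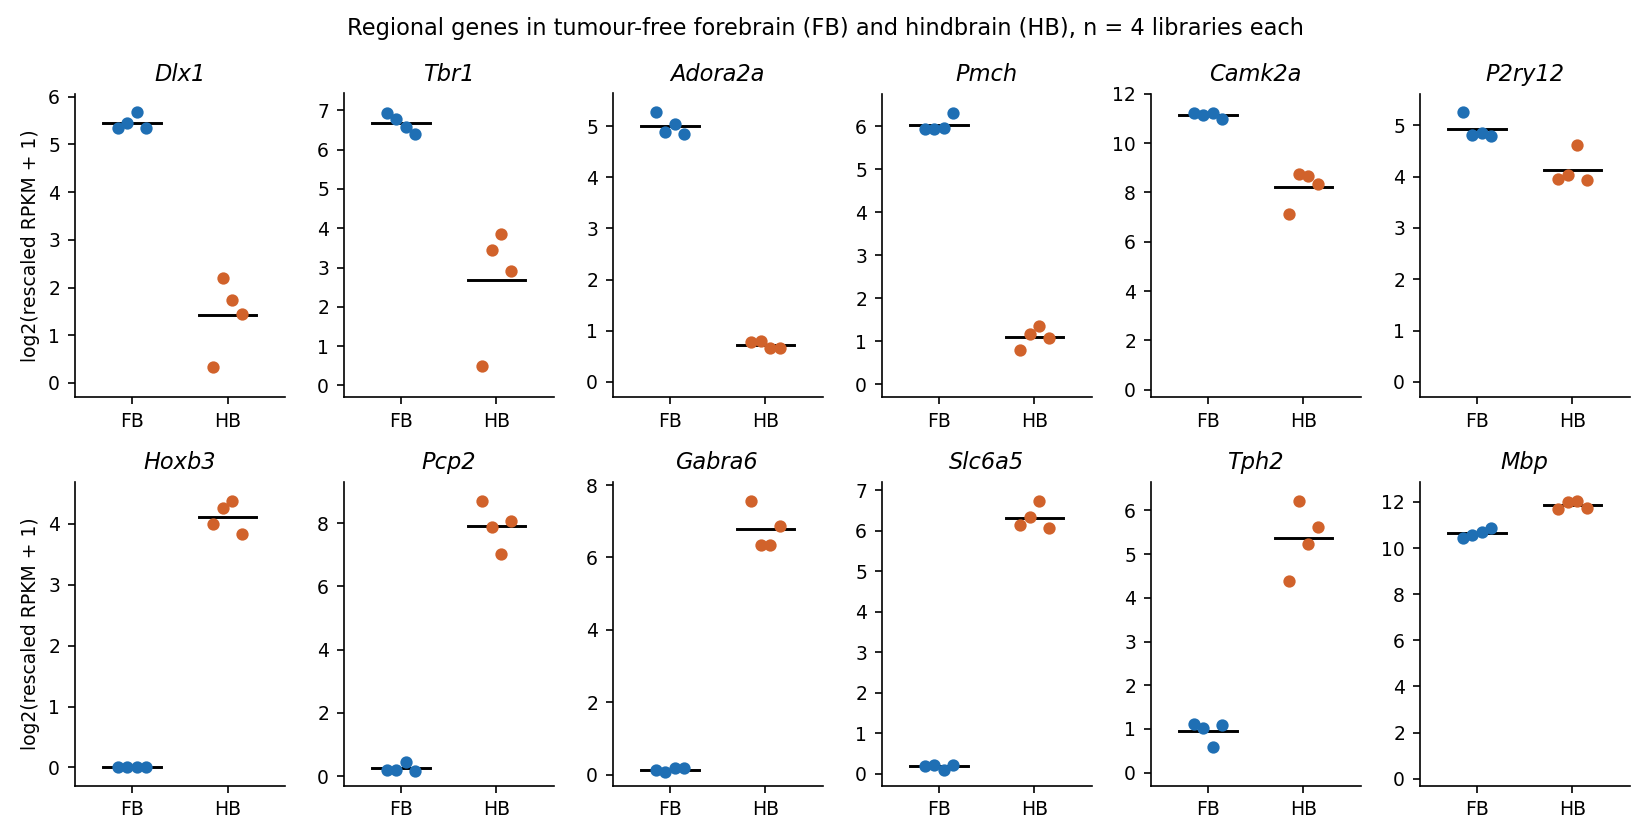
Rescaled RPKM of 12 regional genes in each library (vertical axis, log2 of the value plus 1, 1 point per library, bars at the mean of 4), with forebrain on the left of hindbrain for each gene. The 6 genes in the upper row are higher in every forebrain library and the 6 in the lower row in every hindbrain library.

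Genes of GABA neurons divided. Of 15 tested, 7 were higher and 4 lower in forebrain. Npy, Vip, Sst and Cort mark classes of cortical interneurons. They were 4.14, 3.30, 2.48 and 2.73-fold higher, and Lhx6, the factor of interneurons born in the medial ganglionic eminence, was 6.35-fold higher. Pvalb, the calcium-binding protein of fast-spiking interneurons and of Purkinje cells, went the other way, with 58.2, 60.2, 65.9 and 85.5 in forebrain and 660.2, 429, 303 and 483 in hindbrain. Every forebrain library was below every hindbrain library, and the difference was 6.68-fold. Gad1 and Gad2, the enzymes that make GABA, measured 419 ± 23.7 and 130.1 ± 12.6 in forebrain and 456 ± 59.5 and 123 ± 6.47 in hindbrain, and neither was called (adjusted p = 0.328 and 0.417). Cck, a peptide of cortical neurons, was 5.46-fold higher. Of 13 telencephalic peptide genes, 9 were higher and 1 was lower in forebrain. That gene was Crh, the corticotropin-releasing hormone gene, lower by 1.68-fold, and its call was lost without forebrain replicate 2, 3 or 4 or hindbrain replicate 1, 2 or 3 (adjusted p = 0.0547 to 0.0959). The call of Crh was also lost with median-of-ratios scaling, quantile normalization, library weights or voom, and without the filter.

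The 15 largest differences towards hindbrain were those of Pcp2, Cbln3, Gabra6, Slc6a5, Cnpy1, Ppp1r17, Arhgef33, Car8, Tph2, Fat2, Dao, Crtam, Hoxb8, Hoxb5 and Glra1, in falling order, and 7 of them belong to the lists of Purkinje cells, granule cells or other cerebellar neurons. This overlap too is only a description, since the lists were chosen with earlier results of these data known. Of 19 Purkinje cell genes, 2 were higher and 17 lower in forebrain, with a median log2 difference of -1.47. Of 16 granule cell genes, 1 was higher and 12 were lower, with a median of -2.06. Pcp2, a G protein modulator of Purkinje cells, measured 0.139, 0.145, 0.373 and 0.125 in forebrain, against 414, 235, 128 and 269 in hindbrain. Gabra6, the GABA-A receptor subunit of granule cells, measured 0.0899, 0.0625, 0.134 and 0.134 in forebrain, against 187, 80.7, 79.6 and 117 in hindbrain. The forebrain was near 0 for both, and hindbrain replicate 1 was the highest of the hindbrain libraries. The differences were 203-fold (adjusted p = 2.09e-07) and 99.5-fold (adjusted p = 5.2e-08), or 348-fold and 170.3-fold against replicate 1 alone.

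The cerebellins differed among themselves. They are secreted C1q-like proteins that bridge presynaptic neurexins and postsynaptic receptors. Cbln3 was 137-fold lower in forebrain (249-fold against hindbrain replicate 1) and Cbln1 9.42-fold lower, at 17.7, 20.7, 20.4 and 22.1 in forebrain and 346, 168, 125 and 213 in hindbrain. Cbln2 was instead 1.27-fold higher in forebrain, and Cbln4 measured 11.04 ± 0.951 in forebrain and 11.4 ± 1.70 in hindbrain with no call (adjusted p = 0.841). Itpr1, the calcium release channel of Purkinje cells, was already abundant in forebrain, with 1329 ± 159.7 there and 3374 ± 1167 in hindbrain, a difference of 2.45-fold. Neurod1, Zic1 and Fat2, factors and an adhesion protein of granule cells, were lower by 7.86, 4.82 and 20.9-fold. The granule cell list member on the other side was Slc17a7, which the cortex also expresses. Foxp2 and Pcp4, made by Purkinje cells and by striatal or cortical neurons, were both 1.37-fold higher in forebrain. The values of Pcp4 overlapped, and its call was lost without forebrain replicate 4 (adjusted p = 0.0537).

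Transmitter systems divided between the regions. Glutamate is loaded into vesicles by 3 transporters. Slc17a7, which encodes VGLUT1 of cortical and granule neurons, measured 597, 654, 629 and 575 in forebrain, against 165, 169, 139 and 153 in hindbrain. Slc17a6, which encodes VGLUT2 of thalamic, hypothalamic and brainstem neurons, measured 64.9, 76.9, 72.4 and 92.6 in forebrain, against 152, 167, 198 and 196 in hindbrain. The 2 genes moved in opposite directions without overlap, 3.91-fold higher (adjusted p = 3.92e-08) and 2.31-fold lower (adjusted p = 1.14e-05) in forebrain. Slc17a8, which encodes VGLUT3, measured 3.12 ± 0.283 in forebrain and 3.04 ± 0.909 in hindbrain with no call (adjusted p = 0.8). Slc32a1, the vesicular transporter of GABA and glycine, was 1.38-fold lower in forebrain.

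Glycine, the inhibitory transmitter of brainstem and spinal cord, had its own set of hindbrain genes. Slc6a5, the transporter GLYT2 that refills glycine neurons, measured 0.139, 0.161, 0.0692 and 0.152 in forebrain, against 69.5, 80.6, 105 and 65.7 in hindbrain. Glra1, the adult alpha subunit of the glycine receptor, measured 2.11, 3.55, 1.89 and 2.34 in forebrain, against 51.5, 69.0, 78.2 and 50.4 in hindbrain. Neither pair of ranges overlapped, and the differences were 70.7-fold and 18.2-fold (adjusted p = 1.71e-09 and 5.83e-08). The subunits differed among themselves. Glra2 was 1.38-fold higher in forebrain and Glra3 measured 5.50 ± 1.27 in forebrain and 5.63 ± 1.54 in hindbrain (adjusted p = 0.941). Slc6a9, the glial transporter GLYT1, was 3.03-fold lower. Gphn, the scaffold of glycine and GABA-A receptors, measured 34.3 ± 1.62 in forebrain and 36.1 ± 1.81 in hindbrain and was not called (adjusted p = 0.408).

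Serotonin and noradrenaline neurons have most of their cell bodies in the brainstem. Tph2, the enzyme that starts serotonin synthesis in neurons, measured 1.15, 1.04, 0.492 and 1.12 in forebrain, against 19.8, 73.4, 36.5 and 48.4 in hindbrain. Slc6a4, the serotonin transporter, measured 0.24, 0.0937, 0.0535 and 0.0536 in forebrain, against 7.94, 32.4, 11.53 and 20.2 in hindbrain. Both were lowest in hindbrain replicate 1 and highest in replicate 2, and the differences were 21.3-fold and 15.2-fold, or 10.8-fold and 8.07-fold against replicate 1 alone. Fev, the transcription factor of serotonin neurons, followed at 3.95-fold. The receptor Htr2a, expressed by cortical neurons, was 2.35-fold higher in forebrain. Dbh, which makes noradrenaline, was 7.82-fold lower in forebrain, at 0.461 ± 0.149 in forebrain and 11.3 ± 5.31 in hindbrain. The dopamine transporter gene Slc6a3 measured 6.44, 5.46, 2.53 and 3.19 in forebrain and 0.243, 1.12, 13.2 and 3.23 in hindbrain. Dopamine neurons lie in the midbrain, and the hindbrain libraries spread from near 0 in replicate 1 to above all forebrain libraries in replicate 3, so no direction was called (adjusted p = 0.578). Without replicate 3 it was 2.31-fold higher in forebrain, and of single libraries left out, the call came only without hindbrain replicate 3 (adjusted p = 0.0491). Th, the rate-limiting enzyme of catecholamine synthesis, measured 12.1 ± 3.24 in forebrain and 15.9 ± 7.92 in hindbrain, overlapped and was not called (adjusted p = 0.466).

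Acetylcholine genes lay on both sides, and so did the muscarinic receptors among them. Slc18a3 and Chat, the vesicular transporter and the enzyme of acetylcholine neurons, were 3.78-fold and 1.84-fold lower in forebrain. Prph and Calca, an intermediate filament and a peptide of motor neurons, were 7.39-fold and 5.59-fold lower. Chrm1, the main muscarinic receptor of cortex and hippocampus, measured 60.7, 66.9, 66.2 and 51.1 in forebrain, against 0.776, 6.72, 7.39 and 4.46 in hindbrain, and was 12.4-fold higher or 34.9-fold against hindbrain replicate 1. Chrm4, enriched in striatum, was 6.31-fold higher, or 13.1-fold against hindbrain replicate 1 and 4.945-fold without it, while Chrm2 was 2.09-fold lower.

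Receptor families held subunits on both sides. Ionotropic glutamate receptors are tetramers, in which NMDA receptors combine an obligatory GluN1 with GluN2 subunits. Grin1, which encodes GluN1, was 1.23-fold higher in forebrain, at 152 ± 12.05 in forebrain and 124 ± 10.02 in hindbrain. Grin2b measured 1037, 831, 573 and 695 in forebrain, against 134, 221, 293 and 203 in hindbrain, 3.72-fold higher (adjusted p = 0.000258), and Grin2a was 2.07-fold higher. Grin2c, the subunit of mature granule cells and astrocytes, and Grin2d, of brainstem and diencephalon, were 2.12-fold and 1.66-fold lower. Of the AMPA receptor genes, Gria2 and Gria3 were 1.91-fold and 1.45-fold higher and Gria4 was 3.16-fold lower, while Gria1 measured 120.0 ± 11.7 in forebrain and 111 ± 26.4 in hindbrain without a call (adjusted p = 0.509). The kainate receptor gene Grik5 was 2.25-fold higher. Over 18 ionotropic glutamate receptor genes, 8 were higher and 7 lower, with a median log2 difference of 0.06. The metabotropic receptors split likewise, with Grm5 and Grm2 2.41-fold and 2.46-fold higher and Grm4 3.94-fold lower in forebrain.

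GABA-A receptors are pentamers, most often of alpha, beta and gamma subunits. Gabra4, an extrasynaptic subunit of striatum, thalamus and dentate gyrus, measured 119.7, 92.5, 87.4 and 106 in forebrain, against 23.8, 20.4, 24.3 and 22.5 in hindbrain, and was 4.29-fold higher. Gabrg3, Gabra5 and Gabra3 were 2.19, 1.89 and 1.68-fold higher in forebrain, and Gabra6 was the large difference in the other direction. Gabrd, which pairs with Gabra4 in forebrain and with Gabra6 in granule cells, measured 43.8, 44.9, 53.0 and 51.8 in forebrain and 53.5, 31.3, 19.6 and 39.6 in hindbrain and was not called (adjusted p = 0.134), although it was higher in forebrain without hindbrain replicate 1 (adjusted p = 0.0166).

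**Figure D3:**
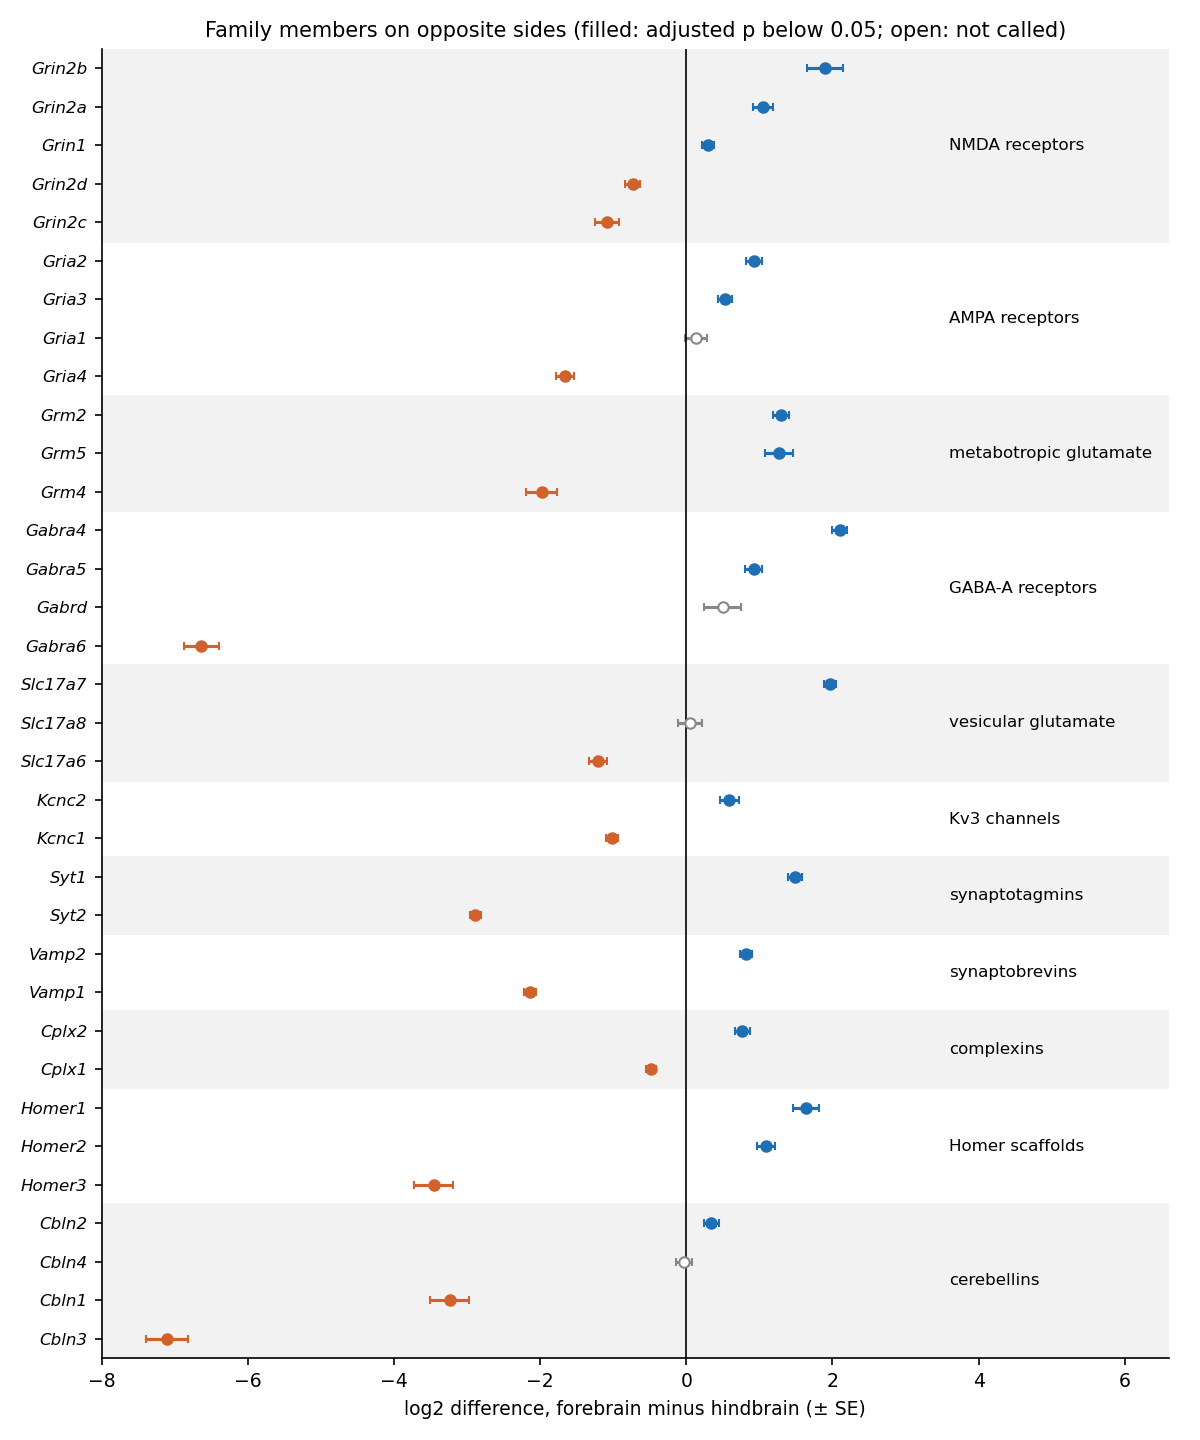
Log2 difference, forebrain minus hindbrain, for members of families of transmitter receptors, transporters, channels, release proteins, scaffolds and cerebellins (horizontal axis, with limma estimates as points and their standard errors as bars, n = 4 libraries each). Filled points are called and open points are not, and every family drawn holds a called member on each side of 0.

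Channels that set firing patterns lay on both sides as well. Voltage-gated potassium channels of the Kv3 family allow fast, repeated firing. Kcnc1 measured 78.7, 82.5, 76.6 and 74.1 in forebrain, against 178, 164, 139.8 and 155 in hindbrain, 2.02-fold lower (adjusted p = 2.78e-06). Kcna1 and Kcna2, of the Kv1 family, were lower by 2.31 and 2.08-fold, while Kcnc2, of the same Kv3 family as Kcnc1, was 1.51-fold higher in forebrain. Kcnj4, an inward rectifier of cortex and striatum, measured 79.1, 78.5, 80.4 and 72.3 in forebrain, against 0.522, 5.92, 7.13 and 5.41 in hindbrain, and Kcnq5, of the slow M current, was 4.34-fold higher. Kcnj4 was 16.2-fold higher over all hindbrain libraries and 51.6-fold against replicate 1. The sodium channel Scn1a, used by fast-spiking neurons, was 1.99-fold lower, whereas Scn2a1 was 1.54-fold higher in forebrain. Among calcium channel genes, Cacna1g and Cacna1a were 2.27-fold and 1.73-fold lower, and the auxiliary subunits Cacng3, which also assists AMPA receptors, and Cacnb3 were 4.19-fold and 3.35-fold higher. Over 31 sodium, potassium and HCN channel genes the counts were 14 higher and 13 lower.

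The machinery of transmitter release differed by paralogs with opposite signs. Syt1 and Syt2 are calcium sensors of fast release. Syt1 measured 718, 710.2, 657 and 593 in forebrain, against 206, 261, 268 and 222 in hindbrain. Syt2 measured 69.2, 72.0, 60.1 and 66.8 in forebrain, against 538, 483, 499 and 488 in hindbrain. The 2 ranges did not overlap in either case, and forebrain was 2.80-fold higher for Syt1 and 7.40-fold lower for Syt2 (adjusted p = 8.67e-07 and 2.65e-09). The vesicle proteins Vamp2 and Vamp1 were 1.76-fold higher and 4.41-fold lower, and the complexins Cplx2 and Cplx1 1.70-fold higher and 1.399-fold lower. The plasma membrane syntaxin Stx1a was 8.47-fold higher, or 19.4-fold against hindbrain replicate 1. The vesicle glycoprotein Sv2b was 2.18-fold higher and Sv2c 3.19-fold lower. Over the 24 presynaptic genes, 10 were higher and 8 lower, with a median log2 difference of 0.04.

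Postsynaptic genes, by contrast, lay almost all on the forebrain side. Of 24 tested, 21 were higher and 1 was lower in forebrain, with a median of 1.21, and 19 were higher against hindbrain replicate 1. Camk2a, the kinase of the postsynaptic density, measured 2354, 2243, 2389 and 2011 in forebrain, against 137, 428, 407 and 324 in hindbrain. Nrgn, the calmodulin-binding protein neurogranin of dendritic spines, measured 1557, 1568, 1875 and 1652 in forebrain, against 73.4, 264, 202 and 211 in hindbrain. Forebrain was 7.54-fold and 9.73-fold higher, or 16.2-fold and 22.3-fold against replicate 1, the lowest hindbrain library for both. Icam5, an adhesion molecule of telencephalic dendrites, was 14.8-fold higher, or 10.9-fold without hindbrain replicate 1. The member lower in forebrain was Homer3, the Homer scaffold of Purkinje cells. Homer3 measured 13.2, 16.7, 18.6 and 21.8 in forebrain, against 322, 182, 125 and 220.4 in hindbrain, 11.001-fold lower, while Homer1 and Homer2 were 3.12-fold and 2.13-fold higher. Ptk2b, a calcium-activated tyrosine kinase, and Rgs14, a signalling regulator of hippocampal area CA2, were 15.4-fold and 15.2-fold higher in forebrain, and 33.7-fold and 31.7-fold against hindbrain replicate 1.

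Neurofilaments, which set the calibre of large axons, were lower in forebrain. Nefl, Nefm and Nefh, the light, medium and heavy chains, were lower by 2.28, 3.81 and 5.13-fold. Nefh measured 33.7, 41.6, 38.5 and 45.3 in forebrain, against 191, 196, 246 and 199.99 in hindbrain. Its regions did not overlap. Sncg, the gamma-synuclein of brainstem and peripheral neurons, was 7.005-fold lower at 10.5 ± 2.19 in forebrain and 78.9 ± 8.48 in hindbrain. Tubb3, Mapt and Eno2, expressed by most neurons, measured 264 ± 29.4, 978 ± 47.2 and 2020 ± 84.9 in forebrain and 263 ± 18.9, 952 ± 40.9 and 1975 ± 84.1 in hindbrain, and none was called (adjusted p = 0.989, 0.626 and 0.689). Of 18 genes of neuronal cytoskeleton and general neuronal markers, 5 were higher and 7 lower. Acan, the aggrecan of perineuronal nets, was 2.54-fold lower in forebrain, and Hapln4, a link protein of those nets, 1.71-fold lower, while Ncan, the neurocan of diffuse matrix, was 1.999-fold higher.

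**Figure D4:**
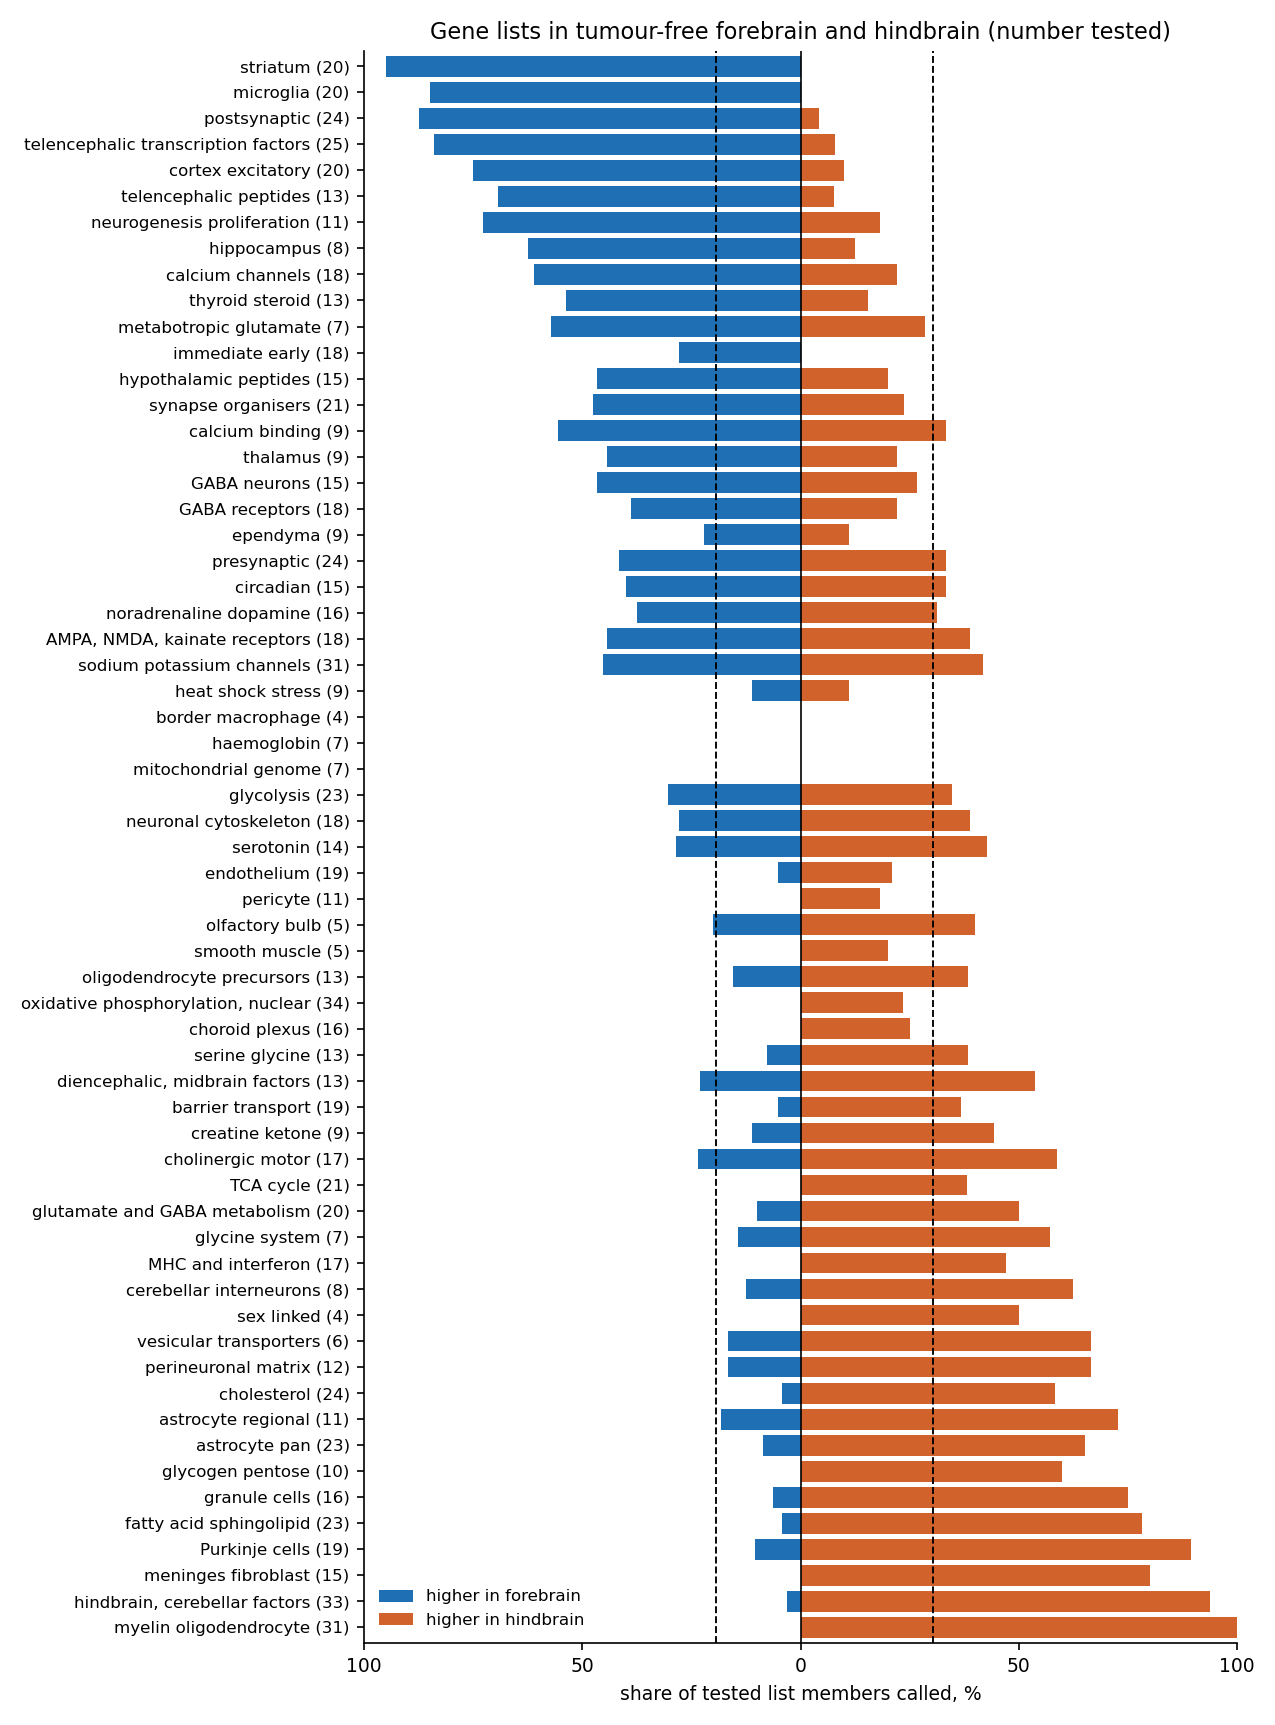
Share of the tested members of each gene list, Hox genes left out, with at least 4 members tested that was called higher in forebrain (bars to the left) and higher in hindbrain (bars to the right), in percent, with the number tested beside each name and dashed lines at the shares over all genes tested, 19.4% and 30.3%. Striatal, microglial and postsynaptic lists stand at the forebrain end, and the myelin list at the hindbrain end.

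Myelin and oligodendrocyte genes were lower in forebrain without exception among those tested. All 31 were called, with a median log2 difference of -1.15. With median-of-ratios scaling 30 were called, and 28 against hindbrain replicate 1 alone. Mbp, the basic protein that compacts myelin, measured 1381, 1498, 1641 and 1872 in forebrain, against 3342, 4068, 4163 and 3463 in hindbrain. Every forebrain library lay below every hindbrain library, by 2.36-fold. Klk6, a secreted protease of mature oligodendrocytes, differed most, with 3.93, 3.02, 4.66 and 5.47 in forebrain and 42.1, 41.0, 56.6 and 40.2 in hindbrain, a difference of 8.76-fold (adjusted p = 1.33e-07). Hapln2, a matrix link protein at nodes of Ranvier, was 3.40-fold lower, and the connexin Gjb1 2.75-fold lower. Ptgds, a prostaglandin synthase that meninges also make, stood near the other end, lower by 1.38-fold. Of 13 genes of oligodendrocyte precursors, 2 were higher and 5 lower in forebrain. Pdgfra and Gpr17, of precursors and of cells entering differentiation, were 1.21-fold and 1.35-fold higher in forebrain, and Cspg4 measured 2.47 ± 0.204 in forebrain and 2.66 ± 0.517 in hindbrain (adjusted p = 0.673).

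Lipid synthesis genes lay on the same side as myelin. Of 23 genes of fatty acid and sphingolipid metabolism, 18 were lower and 1 was higher in forebrain, with a median of -0.70. Ugt8a and Fa2h, which make the galactolipids of myelin and their hydroxylated fatty acids, were 2.68-fold and 2.36-fold lower, and the elongase Elovl7 and the desaturase Scd1 2.32-fold and 1.89-fold. The exception was Cpt1c, the neuronal carnitine palmitoyltransferase paralog, 1.58-fold higher. Cholesterol genes differed less: of 24 tested, 14 were lower and 1 was higher, with a median of -0.26, and median-of-ratios scaling gave 11 lower and 3 higher. Idi1, an enzyme of isoprenoid synthesis, was 1.62-fold lower. Cyp46a1, the neuronal enzyme that turns cholesterol into 24-hydroxycholesterol for export, measured 112, 108, 123 and 109 in forebrain, against 27.8, 40.8, 34.99 and 38.8 in hindbrain, 3.14-fold higher (adjusted p = 8.67e-07).

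Astrocyte genes were more often lower than higher in forebrain. Of 23 pan-astrocytic genes, 15 were lower and 2 higher, with a median of -0.44. With median-of-ratios scaling the counts were 12 and 3. S100b, a calcium-binding protein of astrocytes and oligodendrocytes, measured 109, 109, 129 and 137 in forebrain, against 464, 425, 395 and 393 in hindbrain. Aqp4, the water channel of astrocyte endfeet, measured 45.5, 42.9, 37.4 and 45.0 in forebrain, against 136, 121, 142 and 123 in hindbrain. No library crossed between regions, and the differences were 3.45-fold and 3.01-fold. Gfap, the intermediate filament, was 2.41-fold lower at 149 ± 28.2 in forebrain and 371 ± 120.1 in hindbrain. Slc1a2, which encodes the glutamate transporter GLT-1, was 1.26-fold higher in forebrain with overlapping values (adjusted p = 0.0427), and its call was lost without forebrain replicate 1, 2 or 4 or hindbrain replicate 1, 2 or 4 (adjusted p = 0.0609 to 0.113). The call of Slc1a2 was also lost with quantile normalization, a replicate block or scaling without mitochondrial genes, and without the filter. Slc1a3, which encodes GLAST, measured 828 ± 25.3 in forebrain and 999 ± 214 in hindbrain and, of single libraries left out, was called lower in forebrain only without hindbrain replicate 3 (adjusted p = 0.0133). Among regional astrocyte genes, Gdf10 of Bergmann glia was 8.39-fold lower in forebrain, A2m 6.58-fold lower, and the GABA transporter Slc6a11 1.93-fold lower. Mfge8, a secreted bridging protein of telencephalic astrocytes, was 2.51-fold higher.

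Microglial genes lay on the forebrain side. Of 20 tested, 17 were higher in forebrain and none was lower, with a median of 0.56, and 16 were higher against hindbrain replicate 1. P2ry12, the purinergic receptor of resting microglia, measured 37.2, 27.1, 27.8 and 26.6 in forebrain, against 14.6, 15.3, 23.7 and 14.3 in hindbrain. Cx3cr1, the receptor for the neuronal chemokine fractalkine, measured 28.3, 23.7, 23.7 and 21.5 in forebrain, against 15.8, 16.9, 14.01 and 12.6 in hindbrain. The ranges were separate, and the differences were modest at 1.73-fold and 1.599-fold (adjusted p = 0.00205 and 0.000398). Fcrls and P2ry13 followed at 1.86-fold and 1.66-fold. Sall1, a transcription factor of microglia, had a log2 difference of -0.14 and was not called (adjusted p = 0.234). Genes of macrophages of the brain borders gave no call and 0 genes with an unadjusted p below 0.05 among the 4 genes tested, such as Mrc1 at 1.94 ± 0.111 in forebrain and 2.42 ± 0.637 in hindbrain. Genes of antigen presentation and interferon responses lay on the other side where called. Of 17 tested, none was higher and 8 were lower in forebrain, which is 47.1% against 30.3% over all genes tested. The count was 5 with median-of-ratios scaling or quantile normalization. Without forebrain replicate 1 or hindbrain replicate 2 the count was 5 as well, and without forebrain replicate 3 or hindbrain replicate 1 it was 4. These smaller counts were near or below the share over all genes tested. Oasl2, an interferon-induced gene, was 1.80-fold lower, and Isg15, an interferon-induced ubiquitin-like protein, was 1.74-fold lower at 0.819 ± 0.492 in forebrain and 2.11 ± 0.507 in hindbrain.

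Cd4, the co-receptor gene of helper T cells, was among the 15 largest differences towards forebrain in these mice with few T cells. It measured 19.1, 15.4, 17.5 and 14.1 in forebrain, against 0, 0.498, 0.256 and 0.0667 in hindbrain. The difference was 14.7-fold (adjusted p = 3.37e-08). The T cell receptor chain Cd3e measured 0, 0.053, 0 and 0 in forebrain and 0, 0.041, 0 and 0.0879 in hindbrain, and Cd8a measured 0, 0, 0 and 0.0439 in forebrain and 0, 0, 0 and 0.106 in hindbrain, so the defining T cell markers were at or near 0 in both regions. Cd3e and Cd8a were chosen after the value of Cd4 was seen. In the tumour-bearing brain Cd4 measured 20.1, 24.4 and 26.9 in forebrain, against 0.328, 0.134 and 0.296 in hindbrain.

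Vessels showed few differences. Of 19 endothelial genes, 1 was higher and 4 were lower in forebrain, with a median of -0.15, and of 11 pericyte genes none was higher and 2 were lower (4 called without hindbrain replicate 4). Over all genes tested the shares were 19.4% higher and 30.3% lower, so these counts are at or below the background. Cldn5, the tight junction protein of the barrier, measured 11.9 ± 2.15 in forebrain and 11.9 ± 4.80 in hindbrain (adjusted p = 0.851). Vwf, the clotting factor made more by larger vessels than by capillaries, was the largest of these differences, 2.08-fold lower in forebrain, with 7.79, 10.3, 6.96 and 8.55 in forebrain and 14.7, 33.7, 16.0 and 14.2 in hindbrain. Hindbrain replicate 2 was the highest, and the ranges did not overlap. Of 19 transport genes of the barrier, 7 were lower and 1 was higher. Slc2a1, the glucose transporter of barrier and astrocytes, and Slc16a1, the transporter of lactate and ketone bodies, were 1.31-fold and 1.65-fold lower in forebrain.

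Meningeal genes were lower in forebrain. Of 15 tested, 12 were lower and none was higher, with a median of -0.66. Col3a1, a fibrillar collagen, measured 8.62, 10.2, 9.38 and 10.7 in forebrain, against 16.9, 44.1, 30.1 and 23.6 in hindbrain. Igf2, a growth factor of meninges and choroid plexus, measured 116, 134, 165 and 155 in forebrain, against 248, 319, 242 and 228 in hindbrain. Hindbrain replicate 2 was the highest library for both, and forebrain was 2.62-fold and 1.81-fold lower. The summed level of the list was 258 to 314 in forebrain and 435 to 690.5 in hindbrain. How much of the meninges stayed on each dissected region is not stated, and its part in this difference was not tested. Choroid plexus genes were uneven among libraries. Of 16 tested, 4 were lower and none was higher, while 10 were called without hindbrain replicate 2 and 9 were lower against hindbrain replicate 1 alone. Ttr, the thyroxine carrier that is the main product of this epithelium, measured 232, 655, 836 and 493 in forebrain and 765, 358, 924 and 736 in hindbrain, with wide overlap and no call (adjusted p = 0.518).

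Genes of adult neurogenesis, which in the mouse takes place along the lateral ventricles and in the dentate gyrus of the forebrain, lay on the forebrain side. Of 11 tested, 8 were higher and 2 lower, with a median of 0.62. Dcx, the microtubule protein of migrating young neurons, measured 17.3, 14.8, 12.5 and 11.4 in forebrain, against 5.02, 6.97, 9.87 and 6.82 in hindbrain. Top2a, a topoisomerase of dividing cells, measured 4.82, 3.22, 5.61 and 3.98 in forebrain, against 1.397, 2.12, 1.51 and 0.629 in hindbrain. Both were higher in every forebrain library, by 1.85-fold and 2.27-fold (adjusted p = 0.00164 and 0.000589). Thbs4, a thrombospondin of the migratory stream to the olfactory bulb, was 2.99-fold higher. Cd24a and Egfr were the 2 members on the other side, lower by 3.03-fold and 1.42-fold.

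Genes of glycolysis lay on both sides. Of 23 glycolysis and lactate genes, 7 were higher and 8 lower. Lactate dehydrogenase is a tetramer of A and B chains. Ldha measured 427, 463, 467 and 439.6 in forebrain, against 211, 253, 206 and 224 in hindbrain, 2.01-fold higher (adjusted p = 1.88e-06). Ldhb was 1.23-fold lower, at 610.0 ± 60.3 in forebrain and 745 ± 37.7 in hindbrain. Hk2, the inducible hexokinase, measured 2.20, 3.15, 2.31 and 2.16 in forebrain, against 16.3, 12.5, 8.29 and 10.4 in hindbrain, 3.65-fold lower. Aldoc, the aldolase of astrocytes and of zebrin-positive Purkinje cells, was 1.90-fold lower, and Pygm, the glycogen phosphorylase that astrocytes share with muscle, 2.84-fold lower. Of 21 genes of the tricarboxylic acid cycle, none was higher and 8 were lower, which is 38.1% against 30.3% over all genes tested. When the median of ratios set the scale, only 4 of the 21 were called lower and 1 was called higher. On that scale 3566 of all 14860 genes tested were lower, a larger share than in this list. Without hindbrain replicate 1 or 4 or without forebrain replicate 2, 5 of the 21 were called. Of 10 glycogen and pentose phosphate genes, none was higher and 6 were lower, and of 9 creatine and ketone genes 1 was higher and 4 were lower. Of 34 nuclear genes of oxidative phosphorylation, none was higher and 8 were lower in forebrain, with a median of -0.12. That is 23.5% lower, below the 30.3% over all genes tested. Scaling by the median of ratios gave 2 higher and 2 lower. Quantile normalization gave 0 higher and 11 lower, and scaling without mitochondrial genes 0 higher and 10 lower, so that this direction depends on scaling. Without forebrain replicate 2 there were 4 calls, and without hindbrain replicate 4 there were 5. Cox6c, a subunit of cytochrome oxidase, was 1.41-fold lower. None of the 7 genes of the mitochondrial genome was called by limma or with voom weights and 1 had an unadjusted p below 0.05, at a median of -0.25 with single libraries that varied, such as mt-Nd1 at 10721, 6971, 5984 and 8249 in forebrain and 10150, 6083, 12486 and 9649 in hindbrain. Without forebrain replicate 1, 3 of them were called, and without hindbrain replicate 2, 1 was.

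D-serine is a co-agonist of NMDA receptors. Srr, the racemase that makes D-serine, measured 83.5, 83.0, 82.5 and 75.3 in forebrain, against 37.4, 41.2, 37.9 and 36.4 in hindbrain. Dao, the D-amino acid oxidase that degrades it, measured 0.144, 0.299, 0.342 and 0.471 in forebrain, against 35.6, 25.3, 17.2 and 30.3 in hindbrain. Neither gene overlapped between regions, and forebrain was 2.09-fold higher for Srr (adjusted p = 6.51e-07) and 20.8-fold lower for Dao (adjusted p = 7.45e-08). Slc7a10, a transporter of small neutral amino acids including D-serine and glycine, was 1.86-fold lower in forebrain. Phgdh, which starts serine synthesis, measured 55.7 ± 8.93 in forebrain and 56.1 ± 10.6 in hindbrain and was not called (adjusted p = 0.977).

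Among genes of thyroid and steroid hormone action, 7 of 13 were higher and 2 lower in forebrain. Crym, a cytosolic protein that binds thyroid hormone, measured 39.2, 46.8, 47.7 and 46.4 in forebrain, against 1.45, 3.27, 2.50 and 3.23 in hindbrain, 13.004-fold higher (adjusted p = 8.78e-08). The receptor genes Thrb and Thra were 2.15-fold and 1.75-fold higher, whereas Hr, a corepressor that thyroid hormone induces, was 1.93-fold lower. Of 15 circadian clock genes, 6 were higher and 5 lower. Npas2, which can stand in for CLOCK as the partner of BMAL1, measured 124, 123, 103 and 99.3 in forebrain, against 14.3, 26.4, 21.1 and 22.8 in hindbrain, 5.20-fold higher. Arntl, which encodes BMAL1, was 1.31-fold higher. The time of day of the dissections is not stated.

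Activity-induced genes were uneven among libraries. Fos, the immediate early transcription factor, measured 19.4, 88.7, 82.5 and 91.4 in forebrain and 14.7, 88.7, 97.1 and 85.6 in hindbrain, and was thus low in replicate 1 of both regions. Arc, a synaptic gene induced by activity, measured 22.8, 109, 120.5 and 98.4 in forebrain and 9.66, 43.5, 39.6 and 28.5 in hindbrain and was not called (adjusted p = 0.13), although it was higher in forebrain without forebrain replicate 1 (adjusted p = 0.0209). Of 18 such genes, 5 were called higher and none lower. Without forebrain replicate 1 the count of calls was 9, and without forebrain replicate 2, 3 or 4 it was 3. With replicate numbers as blocks the count was 15, and Arc was then called higher in forebrain. Egr3, another such transcription factor, was the largest of these at 6.58-fold, or 25.7-fold against hindbrain replicate 1 and 4.18-fold without it. The part of this replicate difference in any regional difference was not tested.

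The same regional difference in the 6 tumour-bearing libraries gave 8023 calls, 52.8% of the genes tested there (19.3% higher and 33.5% lower in forebrain). With median-of-ratios scaling the counts were 3738 higher and 3651 lower, against 2934 higher and 5089 lower as scaled here. The 2 comparisons share no library. Of the 7374 tumour-free calls, 7294 were tested in tumour-bearing brain and 5441 were called in the same direction, which is 73.8% of the tumour-free calls and 67.8% of the tumour-bearing calls. There 30 of 31 myelin genes were lower in forebrain, and 20 of 20 striatal and 19 of 20 microglial genes were higher. Other lists had counts unlike those without tumours. MHC and interferon genes, with 0 higher and 8 lower without tumours, had 4 higher and 4 lower in tumour-bearing forebrain. Thalamic genes had 4 higher and 2 lower without tumours, and 1 higher and 4 lower with them. Their summed level was lower in forebrain in both comparisons. It was 372 to 469 in forebrain and 566 to 801 in hindbrain without tumours, and 292 to 308 and 612 to 709 with them. Genes of the perineuronal matrix had 2 higher and 8 lower without tumours, and 5 higher and 5 lower with them. Hypothalamic peptide genes had 7 higher and 3 lower without tumours, and 3 higher and 2 lower with them (4 and 4 with replicate numbers as blocks). Of the 34 nuclear genes of oxidative phosphorylation, 8 were lower in forebrain without tumours and 31 with them. The tumour-free direction of this list depends on scaling, and its tumour-bearing count was not taken under other scalings. Pcp2 was 251-fold lower, Syt2 7.73-fold lower, Adora2a 26.6-fold higher and Tbr1 78.4-fold higher in tumour-bearing forebrain. Slc1a2, at 1.26-fold without tumours, was 2.28-fold higher there, and Gfap measured 736 ± 181 in forebrain and 963 ± 189 in hindbrain (SD, n = 3 each) without a call (adjusted p = 0.162), although with replicate numbers as blocks it was called lower (adjusted p = 0.00167). Another 32 genes were called in opposite directions. The widest gaps without overlap in either comparison were those of Nr2f2, a transcription factor of forebrain interneurons and vessels, and of Isg15. Nr2f2 measured 24.2, 24.4, 20.1 and 19.7 in tumour-free forebrain, against 15.3, 13.6, 19.0 and 14.5 in tumour-free hindbrain, and 9.41, 7.51 and 7.56 in tumour-bearing forebrain, against 13.97, 16.2 and 13.9 in tumour-bearing hindbrain. Isg15 measured 4.84, 5.45 and 4.63 in tumour-bearing forebrain, against 3.53, 3.71 and 2.91 in tumour-bearing hindbrain. Tumour-bearing libraries held human as well as mouse tissue and were deeper, at 52358082 to 86139353 mouse reads, and whether the regional difference itself changed with tumours was not tested here.

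**Figure D5:**
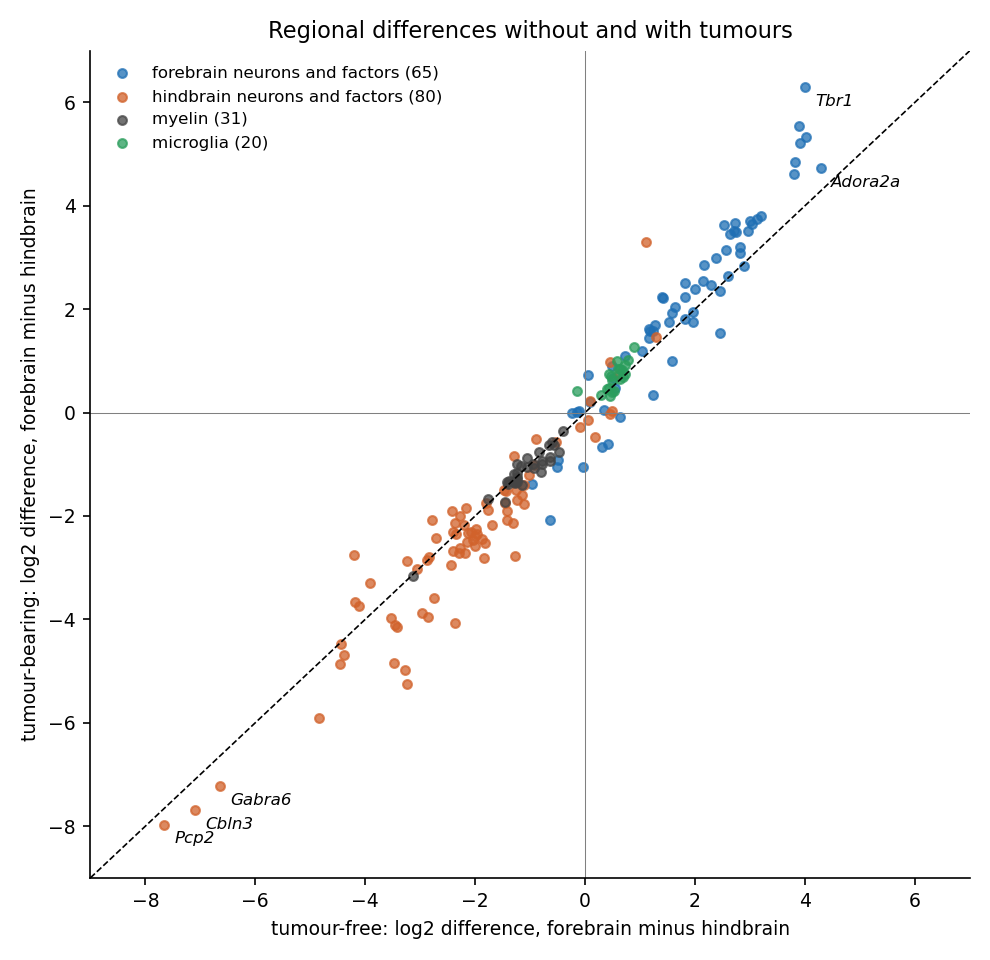
Log2 difference, forebrain minus hindbrain, of list members tested in both comparisons, in tumour-free brain (horizontal axis, n = 4 libraries each) and tumour-bearing brain (vertical axis, n = 3 each), coloured by list group, with the diagonal dashed. Points run from Pcp2 and Cbln3 at the lower left to Adora2a and Tbr1 at the upper right. Some lie off the diagonal, such as Tbr1, whose difference was larger in tumour-bearing brain.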

How the data were processed

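Total RNA of forebrain and hindbrain was extracted with a lipid tissue kit and made into sequencing libraries by standard Illumina methods, per the labels' protocols. The authors deposited RPKM per gene and library in 1 mouse table, against mm10 per the submitters' processing notes. The aligner, the counting program and any use of strand were not given in the sources used here. RPKM share out a fixed total, so a change in abundant genes shifts the others.

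RPKM was rescaled to a sum of 1000000 per library and tested with limma 3.58.1 (trend and robust variance) in R 4.3.3 on log2(value + 1), two-sided, for genes at 1 or more in at least 4 libraries (3 in tumour-bearing brain), with Benjamini-Hochberg adjustment and a threshold of 0.05. Tables and figures used Python 3.11.15, numpy 2.4.6, pandas 2.3.3, scipy 1.17.1 and matplotlib 3.10.9. Whole reads were recovered from the RPKM steps, within 0.02 of a whole number, for 32644 of the 33043 genes in the table, which is all genes above 0 in any library. No pair of replicates was alike within sampling noise, with a chi-square of 9.38 to 27.8 per degree of freedom over 12 pairs. On simulated data the test recovered 98% of genes changed 1.5-fold and 100% of those changed 2-fold, 4-fold or to 0.5 of their level between forebrain and hindbrain, over 14828 genes, with 19 of 218 calls false (8.72%). For tumour-bearing brain it recovered 98% at 1.5-fold and 100% at the other sizes over 15051 genes, with 20 of 219 calls false (9.13%). The simulation changed 50 genes per size, all well expressed in every library, at a dispersion of 0.005. That dispersion was not fitted to the spread between these replicates, and 49.6% of genes were called in the tumour-free comparison. The rates of recovery and of false calls therefore do not describe the comparisons above.

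Same-numbered tumour-bearing libraries deviated together, at correlations of 0.222 to 0.43, against -0.326 to -0.047 for other numbers, which meets the rule used for pairing, although the labels do not say what a number marks. Counts and p values of tumour-bearing brain come from the fit without a replicate block, and the blocked value stands beside those whose call it changes. Bounds for genes without reads use 3 reads over a group and cover counting error only. Alternatives were other pseudocounts, filters, scalings, library weights, a replicate block, voom on recovered reads and libraries left out.

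The libraries and the 66 gene lists were chosen with earlier results of these data known. Named genes were the 15 largest differences in each direction whose mean reached 5 in the higher region without overlap of the regions, up to 6 called members per direction of each list by size, and genes that check the labels or end a gene family whatever their call. Arc, Cd3e, Cd8a, Chat, Cldn5, Cspg4, Emx1, Eno2, Fos, Gad1, Gad2, Gh, Gphn, Itpr1, Mapt, Mbp, Mrc1, Nr2f2, Penk, Phgdh, Pomc, Ppp1r1b, Ptgds, Sall1, Scn2a1, Scn4b, Slc1a3, Slc6a3, Th, Ttr, Tubb3, Zic1 and mt-Nd1 lie outside this rule and were chosen after their values were seen. Some genes that the rule names are not reported here.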

Additional observations from a re-analysis of the deposited data

Results flagged for a closer look

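In a group of 4 libraries, 1 library lay far from the other 3 in 34 of 434 gene and group pairs checked. The cutoff would flag about 1 in 20 of independent pairs with normally spread values. Genes here share libraries and some were chosen after their values were seen, so this count is only a description. Values are rescaled RPKM. Forebrain replicate 1 was above the other 3 libraries for P2ry12 at 37.2 and Scn4b at 90.5, and below them for Cplx1 at 714, Crym at 39.2 and Fos at 19.4. Forebrain replicate 2 was above the other 3 libraries for Cd3e at 0.0530, Hk2 at 3.15 and Hoxb5 at 0.0325. Forebrain replicate 3 was above the other 3 libraries for Cacnb3 at 112, Gh at 5.68 and Pcp2 at 0.373, and below them for Lhx1 at 2.26 and Tph2 at 0.492. Forebrain replicate 4 was above the other 3 libraries for Cd8a at 0.0439, Cox6c at 255 and Pmch at 78.5, and below them for Cux1 at 44.2 and Srr at 75.3. Hindbrain replicate 1 was above the other 3 libraries for Etv1 at 98.3, and below them for Fos at 14.7. Hindbrain replicate 2 was above the other 3 libraries for Grm2 at 13.95, Slc7a10 at 138 and Vwf at 33.7. Hindbrain replicate 3 was above the other 3 libraries for Gh at 8.64, Klk6 at 56.6, Nefh at 246, P2ry12 at 23.7 and Ugt8a at 90.6, and below them for Hcrt at 0, Ldhb at 689 and Slc32a1 at 91.8. Hindbrain replicate 4 was above the other 3 libraries for Cd8a at 0.106, and below them for Crh at 2.63 and Prox1 at 15.4. For Cd3e, Cd8a, Hoxb5 and Hcrt these values rest on a few reads or none. Where Cd3e, Cd8a and Hoxb5 were flagged, the other 3 libraries were at 0, which fixed the flag in advance.

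The regional difference ran in opposite directions without and with tumours for Isg15 and Nr2f2, without overlap between regions in either comparison. The log2 difference, forebrain minus hindbrain, in tumour-bearing brain was 0.45 for Isg15 and -0.78 for Nr2f2. The difference between the comparisons was not tested. Nr2f2 was named after its values were seen.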

How the results depend on the processing

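No named gene changed direction past the threshold under any of the 23 settings tried. Of 216 named genes tested, 190 kept their side of the threshold under all 23, 20 lost a call and 6 gained one under at least 1 setting. Apart from genes whose loss is given beside their values, calls were lost for Cartpt and Cbln2 without replicate 2 of both regions, for Gpr17, Grin1, Idi1 and Pcp4 without replicate 3, for Bcl6, Idi1, Pcp4, Pdgfra and Slc2a1 without replicate 4, for Ldhb without replicate 1 or 2 and for Pdgfra and Ptgds without replicate 1, and for Idi1 with quantile normalization. Pomc gained a call with library weights or quantile normalization, and Slc17a8 against hindbrain replicate 1 alone. Against that library alone, a comparison added after the data were seen, 4856 genes were called and 2876 of them were lower in forebrain, with cholesterol, circadian, glycolysis and sodium and potassium channel lists at 9, 5, 8 and 17 calls. That setting has fewer libraries. Of the 66 list counts, 28 moved by over 1.5 times under at least 1 setting. Without single libraries the counts were 6656 to 7188 called, 2529 to 2903 higher and 4028 to 4335 lower, and without a replicate number in both regions 5931 to 6472 called. Quantile normalization gave 3465 higher and 3750 lower. Same-numbered forebrain and hindbrain libraries correlated at -0.079 to 0.384 in their deviations, against -0.318 to 0.324 for other numbers, with 3 of 4 pairs above 0.1, so they did not meet the rule for pairing, and whether a number marks a shared source was not tested. A replicate block gave 7103 calls, with 15 immediate early genes, Arc among them (adjusted p = 4.53e-05), and 5 haemoglobin genes. In tumour-bearing brain the counts were 6985 to 7545 without single libraries and 8931 with the replicate block, which gave 5738 calls shared with tumour-free brain, against 5441 without it, and of the results printed for that comparison changed no call but that of Gfap and no count by over 1.5 times but that of hypothalamic peptides. Depth limits low values: the forebrain level of Pcp2 rests on 6 reads over 4 libraries and that of Gabra6 on 15.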
